A study of Homo sapiens with 10 samples.

Results

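Proteins that leave the endoplasmic reticulum (ER) travel to the Golgi in vesicles formed by the COPII coat, and the COPI coat returns escaped ER proteins and works between Golgi stacks. The genes examined here are the rows of the count table whose symbols begin with SEC or TMED and a digit, or are COPA, COPB, COPE, COPG or COPZ with at most 1 digit. This rule on names found 58 of the 28380 rows, and 45 of them had enough counts for a test, among 13378 such genes in all. It uses no measured value, but it was chosen with earlier results of these data known. It also brings in genes of protein entry into the ER, pseudogenes, antisense RNAs and the SEC14-like lipid-binding proteins, which are not coat proteins.

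RPE-1, an established line of telomerase-immortalized human retinal pigment epithelial cells, was treated for 4 h with 25 µM sulforaphane (SFN), an isothiocyanate from cruciferous vegetables, or with the vehicle DMSO. Each treatment had 5 replicates of the same line. The study's methods call its replicates independent in general terms, but the labels do not say whether these libraries came from separate cultures, so the p-values measure the spread between these samples, which may be technical. Total counts ranged from 15689294 to 20666692 in DMSO and from 12375860 to 17308706 in SFN. All values below are CPM, counts scaled to a common library total, after scaling of the libraries by TMM, and the 2 treatments were tested against each other with edgeR's quasi-likelihood method across all tested genes, with Benjamini-Hochberg adjustment and a threshold of 0.05. SE is the standard error of a log2 fold change.

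One library stood apart before any comparison was made. In DMSO replicate 1, short transcripts were higher and long transcripts lower than in the other DMSO replicates, and 12 of the 45 members deviated there by more than 1 on the log2 scale, 6 upward and 6 downward. Results are therefore given with and without it. The slope of log2 CPM, less each gene's mean, on log2 transcript length was -0.27 in DMSO replicate 1. It was 0.088 to 0.151 in the other DMSO libraries, -0.186 to -0.037 in SFN replicates 1 to 4 and 0.110 in SFN replicate 5. Leaving out DMSO replicate 1 therefore leaves a length difference between the treatments, whose part in the results was not tested. Of the markers of differentiated retinal pigment epithelium, RPE65, RLBP1, TYRP1 and TTR had at most 4 counts in any library and LRAT at most 12, PMEL had 7 to 29 and BEST1 97 to 1244. Of the epithelial and mesenchymal genes listed, KRT8, KRT18, VIM and CDH2 were abundant, EPCAM had at most 2 counts in any library and CDH1 was not found in the table. MITF and OTX2, 2 of 4 tested, fell with SFN (log2 fold changes of -1.12 and -0.64, adjusted p = 5.3e-05 and 0.0029 by edgeR), while BEST1 (1.17, adjusted p = 0.16) and PMEL (0.14, adjusted p = 0.85) did not pass. BEST1 was highest in SFN replicate 2, at 107 CPM. The part of these markers in the results below was not tested. The 5 immune, endothelial and neural markers found in the table had at most 13 counts in any library.

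Secretory and membrane proteins enter the ER through the SEC61 channel, lose their signal peptide to signal peptidase, and are sorted into COPII vesicles. In COPII, SEC23 and SEC24 form the inner coat, SEC24 binds the cargo, and SEC13 and SEC31 form the outer cage. The p24 proteins, named TMED, span the membrane, cycle between ER and Golgi and carry cargo into both kinds of vesicle. Many of these genes are known to be induced in secretory cells and in ER stress by the transcription factor XBP1 and by relatives of CREB3, which bind DNA at sites with the core ACGTG.

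RefSeq promoter windows of 300 bases (250 before and 50 after the start, GRCh38.p14) were read for 38 members, with the window that TMED7 and TMED7-TICAM2 share counted once. A single window was read per gene, and other starts of a gene were not read. The RefSeq start can differ from the GENCODE gene positions given below. The sites shown for COPZ1, TMED7 and SEC23A lie well inside those gene positions, and that of SEC16A lies outside them. SEC24D, TMED4, TMED9, SEC14L1P1, SEC22B4P and SEC63P1 were not analysed. ACGTG stood on either strand in 25 of the 38 windows (65.8%), against 27.0% of the windows of 9724 tested genes and 21.6% of all 27305 windows. The longer TGACGTG, the core of the unfolded protein response element and an extension of ACGTG, stood in 9 of the 38 (23.7%), against 2.63% of those of tested genes. These shares are a description of letters and no site was tested for binding.

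The 9 genes with TGACGTG encode subunits of both coats, in SEC16A a scaffold of the ER exit site, and in SEC62 a partner of the channel. Their sites are shown because the same 7 letters recur in them, with the motif in capitals, 10 bases on either side, and each read on the strand that spells the motif.
SEC23A, chr14:39103223-39103249: cccctcctctTGACGTGgcagaggcgg
SEC24A, chr5:134648596-134648622: tgagagtcggTGACGTGgcggcgaggc
SEC13, chr3:10321239-10321265: tatcctccagTGACGTGcgagaccaga
SEC16A, chr9:136484708-136484734: tcagtccggcTGACGTGgcaccagggc
COPA, chr1:160343229-160343255: agagggtcgcTGACGTGgaggcgtccg
COPB1, chr11:14499842-14499868: agtccttggcTGACGTGgaagggggtg
COPB2, chr3:139389826-139389852: ctaagggccgTGACGTGgtgccgctga
COPE, chr19:18919375-18919401: tgcttccggcTGACGTGtctttcagga
SEC62, chr3:169966781-169966807: cggttccctcTGACGTGgagcgaggag
COPB2 held a further copy downstream of its start. The sites shown for SEC16A and COPA also lay downstream of the start, and those of SEC23A and COPE spanned it.

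None of the 8 genes that rose with SFN with all libraries and no covariate (below) had TGACGTG in its window. In other fits given below, genes with TGACGTG were increased. SEC13 and COPB1 were increased both without DMSO replicate 1 and with the length slope as a covariate. SEC24A, SEC16A and COPA were increased only with the covariate, and COPE only without that library. SEC62 was increased without that library and decreased with the covariate, and SEC23A and COPB2 passed in neither. Of the 8 genes, 5 had the shorter ACGTG, shown with the core in capitals and 10 bases on either side.
COPZ1, chr12:54325128-54325152: gctggtgccgACGTGgagccgcaaa
TMED10, chr14:75176627-75176651: gaggtgagtcACGTGggtccccccg
TMED2, chr12:123584447-123584471: gcctccctttACGTGgcagctgcgg
TMED7, chr5:115626117-115626141: tggagtgcgtACGTGgaagcccgcg
SEC63, chr6:107958265-107958289: gctaagggagACGTGgcgagcgcaa
The COPZ1 site lay downstream of the start. The TMED10 site reads CACGTG, so the core stands on both strands. TMED5, SEC22B and SEC61A1 had neither form within the window. The ER stress elements ERSE (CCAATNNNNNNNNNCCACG) and ERSE-II (ATTGGNCCACG) and the ATF4 element CARE (TGATGNAA) stood in 0 of the 38 windows, against 0.144%, 0.103% and 1.56% of the windows of tested genes.

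SFN increased 8 of the 45 tested members (17.8%) and decreased 0, while 9.07% of all tested genes were increased and 13.9% decreased, 23.0% together. At an unadjusted p under 0.05, 16 were higher and 1 lower, against 14.6% and 20% of all tested genes, and DESeq2 and limma-voom also called 0 decreased. The 8 were the p24 genes TMED2, TMED5, TMED7 and TMED10, the COPI subunit gene COPZ1, the SNARE gene SEC22B, and SEC61A1 and SEC63 of the ER translocon. The changes were small, between 1.27-fold for SEC63 and 1.43-fold for TMED2, and 0 members changed more than 2-fold, against 8.69% of all tested genes. The median log2 fold change of the 45 was 0.22, against -0.03 for all tested genes, and 37 of them had a positive value (82.2%, against 47.4% of all genes). In bulk RNA, a change in the level per cell cannot be told apart from a change in the share of cells that express a gene.

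Without DMSO replicate 1, 19 of the 45 were increased (42.2%) and 3 decreased, while over all genes 22.5% were increased and 23.5% decreased in that comparison. The 8 genes were among the 19. This comparison does not remove the length difference that remained between the treatments. With each library's length slope as a covariate, chosen after seeing the data, 25 members were increased and 2 decreased, against 24.6% and 25.6% of all genes. The 2 ways of handling that library shared 12 calls, the 8 genes among them, and gave opposite calls for SEC62. The number called was also lower with other settings, 3 by limma-voom on quantile normalized values and 2 with library size as the only scaling, which moved the median of all tested genes to -0.11. The share of all genes called under these settings was not computed. All 8 kept a positive log2 fold change in each of 18 alternatives, but COPZ1 was past the threshold in 18, TMED5 in 17, TMED2 in 15, TMED10 and SEC63 in 13, SEC22B and SEC61A1 in 10 and TMED7 in 6.

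The p24 family had the most increased genes, 4 of 9 tested. TMED2, which pairs with TMED10 at the core of p24 complexes, lies on chromosome 12 of GRCh38 from 123584533 to 123598582. Its CPM were 303, 421, 398, 436 and 419 in DMSO replicates 1 to 5 and 595, 531, 599, 528 and 572 in the SFN replicates. Every SFN library lay above every DMSO library, and DMSO replicate 1 was the lowest. The mean was 395 ± 53.6 CPM (SD, n = 5) in DMSO and 565 ± 34.2 CPM in SFN (log2 fold change 0.51, SE 0.12, adjusted p = 0.0082 by edgeR), and the log2 fold change was 0.43 without DMSO replicate 1.

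TMED10, its partner, on chromosome 14 from 75131469 to 75176612, had 178, 218, 198, 214 and 216 CPM in DMSO and 265, 261, 266, 262 and 277 CPM in SFN. The SFN libraries were close together and all above DMSO (log2 fold change 0.38, SE 0.09, adjusted p = 0.012 by edgeR). TMED5, of the gamma subfamily and linked to export of GPI-anchored proteins, on chromosome 1 from 93149742 to 93180516, had 146, 174, 144, 176 and 166 CPM in DMSO and 231, 195, 223, 227 and 266 CPM in SFN. Again the groups did not overlap (log2 fold change 0.50, SE 0.11, adjusted p = 0.0068 by edgeR).

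TMED7, also of the gamma subfamily, on chromosome 5 from 115613210 to 115632992, had 106, 124, 107, 128 and 155 CPM in DMSO and 170, 131, 177, 175 and 187 CPM in SFN. Here SFN replicate 2 fell among the DMSO values, and the gene was closest to the threshold (log2 fold change 0.44, SE 0.14, adjusted p = 0.037 by edgeR). The readthrough gene TMED7-TICAM2 shares exons with TMED7, so the counting could split their reads; it had at most 27 counts in a library (log2 fold change 0.97, SE 0.38, adjusted p = 0.093 by edgeR). It passed with the length slope as a covariate (1.31, adjusted p = 0.0053 by edgeR).

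The other p24 genes did not pass the test. TMED9 (log2 fold change 0.31, SE 0.12) and TMED4 (0.25, SE 0.10), both of the alpha subfamily, were nearest to it. For TMED3 the log2 fold change was 0.04 with all libraries and 0.41 without DMSO replicate 1, and for TMED8 it was -0.16 and -0.35. Without that library TMED3 and TMED9 were increased and TMED8 decreased. With the length slope as a covariate TMED4 (0.30) and TMED9 (0.23) were increased, TMED1 (-0.31) was decreased, and TMED3 (-0.15) and TMED8 (0.17) did not pass. TMED1 had a log2 fold change of -0.16 (SE 0.21). The summed CPM of the 9 genes was between 1178 and 1317 in DMSO and between 1546 and 1701 in SFN, without overlap.

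**Figure D1:**
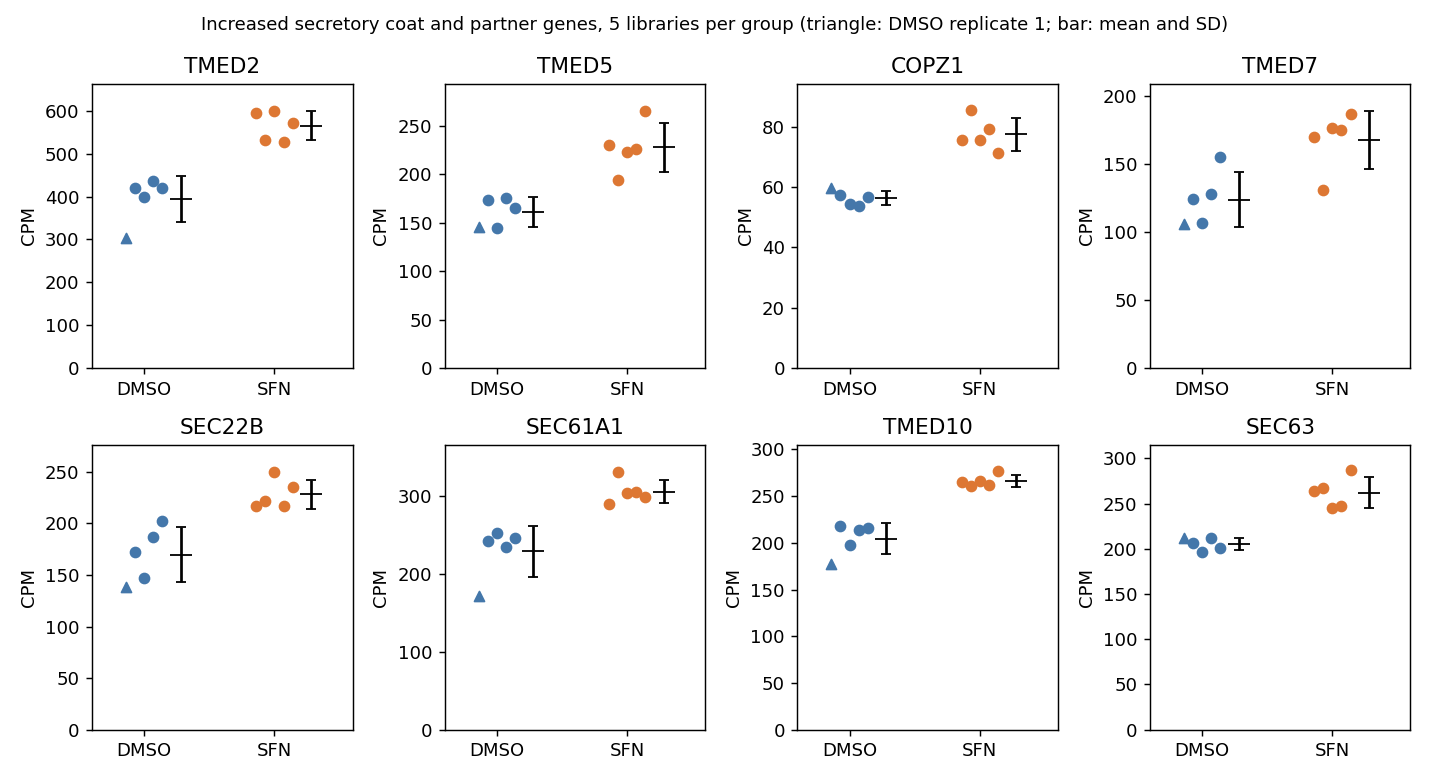
CPM of the 8 increased members in each of 5 DMSO and 5 SFN libraries (points; the triangle is DMSO replicate 1), with the mean and SD beside them; each y axis starts at 0. TMED7 is the panel in which an SFN library lies among the DMSO libraries, and COPZ1 and SEC63 are among those in which DMSO replicate 1 lies close to the other DMSO libraries.

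Of the COPI subunit genes, 8 match the rule, all but that of the delta subunit (ARCN1). All 8 had a positive log2 fold change, between 0.12 for COPB2 and 0.46 for COPZ1, but only COPZ1 passed the test. COPZ1, the major zeta subunit, on chromosome 12 from 54301202 to 54351846, had 59.7, 57.4, 54.2, 53.8 and 56.8 CPM in DMSO and 75.6, 85.7, 75.7, 79.2 and 71.2 CPM in SFN. The groups were separate and DMSO replicate 1 was in place among its group (log2 fold change 0.46, SE 0.09, adjusted p = 0.0033 by edgeR). Its paralog COPZ2 had a log2 fold change of 0.15 (SE 0.22).

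COPB1, the beta subunit, also had every SFN library (182 to 209 CPM) above every DMSO library (157 to 179 CPM), with a log2 fold change of 0.22 (SE 0.09, adjusted p = 0.093 by edgeR). The groups of 8 members did not overlap with SFN higher, and of 0 with SFN lower, against 8.78% and 11.1% of all tested genes. COPA, the alpha subunit, had 61.4 CPM in DMSO replicate 1 and between 157 and 182 CPM in the other DMSO replicates, and its log2 fold change was 0.15 with that library and -0.05 without it. Without it COPB1 and COPE, the epsilon subunit, were increased, with log2 fold changes of 0.24 and 0.49. With the length slope as a covariate COPA (0.50), COPB1 (0.22) and COPG1 (0.34), a gamma subunit, were increased, and COPE (0.09) was not.

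The COPII genes gave results that turned on how DMSO replicate 1 was handled. With all libraries and no covariate, 0 of 11 passed edgeR's test in either direction, with 3 higher and 0 lower at an unadjusted p under 0.05 (SEC24A, SEC13 and SEC31B). Their log2 fold changes ranged from -0.31 for SEC24B to 0.56 for SEC31B. SEC31B, a minor outer coat gene, had at most 142 counts in a library. Its paralog SEC31A had a log2 fold change of -0.03 (SE 0.24) with all libraries and -0.23 without DMSO replicate 1. For the inner coat genes SEC23A and SEC23B the log2 fold changes were 0.12 and 0.20, and for SEC16A and SEC23IP, of the ER exit site, 0.07 and -0.03. Without DMSO replicate 1, SEC13 was increased (log2 fold change 0.34, adjusted p = 0.017) and SEC24B decreased (-0.46, adjusted p = 0.0053 by edgeR). With all libraries and the length slope as a covariate, 8 of the 11 were increased and 0 decreased, against 24.6% and 25.6% of all genes. These were SEC24A (0.63), SEC24D (0.53), SEC24C (0.37), SEC23B (0.23), SEC13 (0.18), SEC31A (0.31), SEC31B (0.78) and SEC16A (0.51), with adjusted p from 4.4e-06 to 0.049 by edgeR. SEC24B then had a log2 fold change of -0.09 (adjusted p = 0.39). SEC13 alone was called in both fits, and SEC31B also passed by limma-voom (0.79, adjusted p = 0.034).

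**Figure D2:**
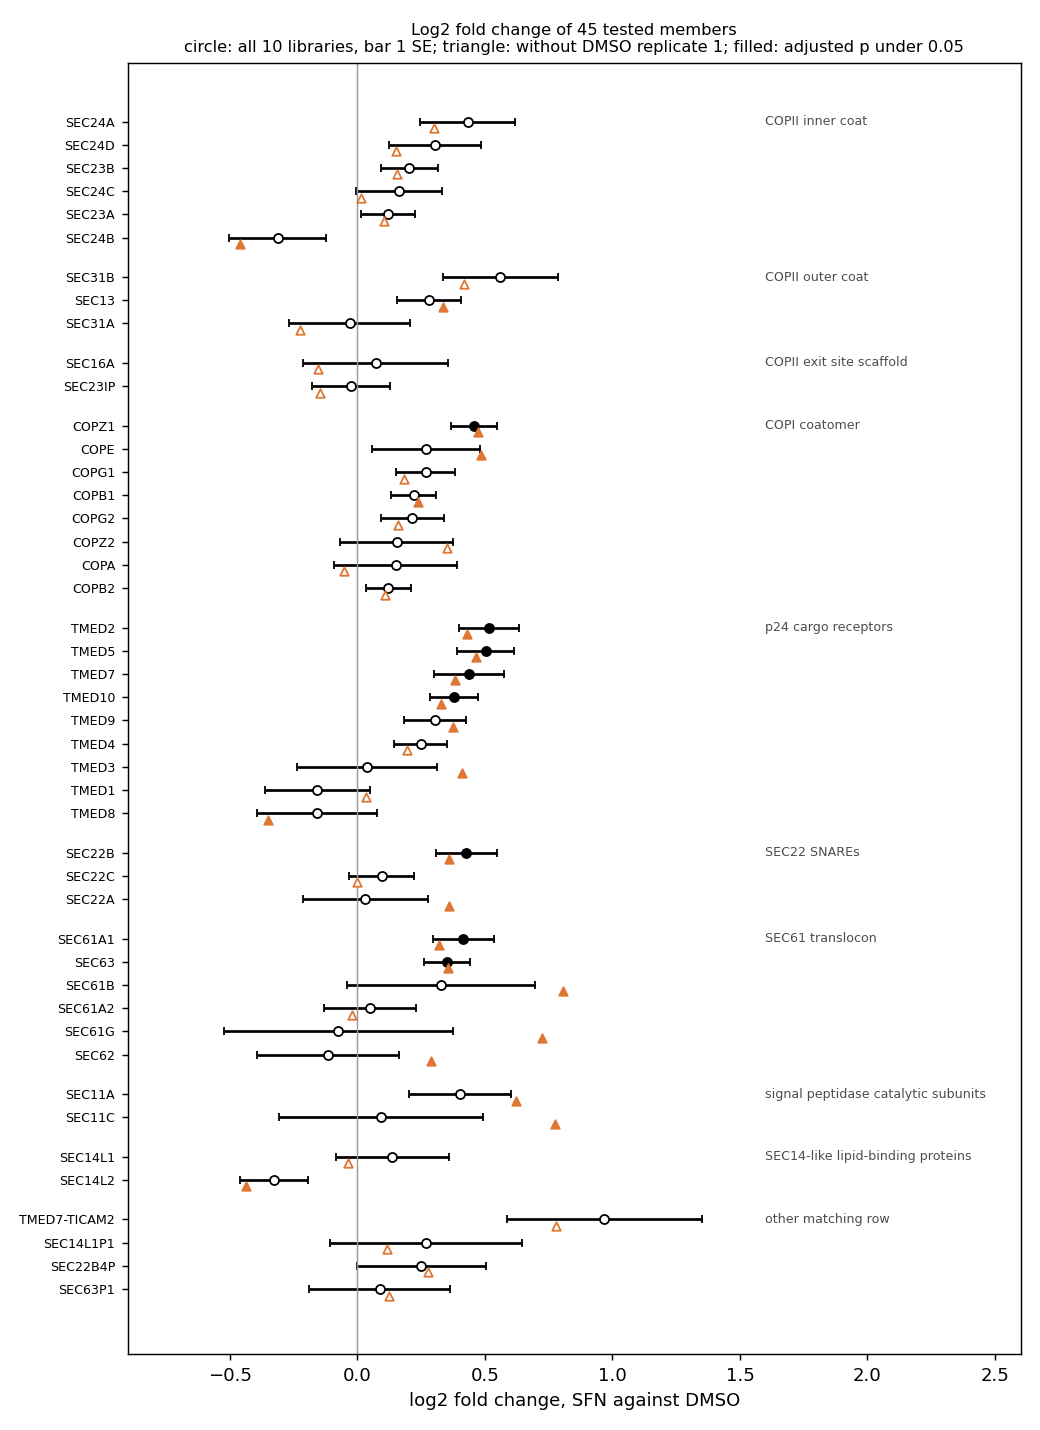
Log2 fold change, SFN against DMSO, of the 45 tested members by role, with all 10 libraries (circles, bars 1 SE) and without DMSO replicate 1 (triangles); filled symbols have an adjusted p under 0.05. The filled circles, 8 in number, all lie to the right of 0, and the triangles move furthest for SEC61G and SEC11C.

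Paralogs were also compared as ratios within each library, which do not depend on the scaling of the libraries. A ratio does not remove the length difference between the treatments where the paralogs differ in length, as TMED1 (1633 bases) and TMED5 (5789 bases) do. No ratio was fitted with the length slope, and the part of length in the ratios was not tested. The SFN minus DMSO difference in the log2 ratio was tested by an exact two-sided permutation test over the 10 libraries for 19 pairs, with Benjamini-Hochberg adjustment over the 19. The smallest p that 252 permutations can give is 0.0079, and 4 pairs passed. After adjustment a pair at this floor passes only where several pairs have a p as low, so pairs tend to pass or fail together. Pairs that share SEC24B are not independent of each other, and the pairs were chosen with earlier results of these data known.

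SEC24 has 4 paralogs, which are the cargo-binding subunits of COPII, SEC24A and SEC24B being close relatives of each other and SEC24C and SEC24D of each other. Against each of the others, SEC24B was lower with SFN. The log2 ratio of SEC24A to SEC24B was -0.11, -0.25, -0.19, -0.19 and -0.32 in the DMSO libraries and 0.46, 0.38, 0.64, 0.51 and 0.55 in the SFN libraries. SEC24B thus had the higher count of the pair in all 5 DMSO libraries and SEC24A in all 5 SFN libraries. The difference was 0.72 (exact permutation p = 0.0079, adjusted p = 0.038), or 1.65-fold.

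The ratio of SEC24B to SEC24D fell by 0.62 on the log2 scale and that of SEC24B to SEC24C by 0.48, each with the same exact p-values and no overlap. The CPM of SEC24B were 31.4, 59.9, 52.7, 59.4 and 68.2 in DMSO and 39.9, 37.1, 43.3, 43.1 and 55.3 in SFN. Those of SEC24A were 29.0, 50.4, 46.1, 52.2 and 54.6 in DMSO and 55.1, 48.3, 67.5, 61.3 and 81.2 in SFN. In both genes DMSO replicate 1 was the lowest DMSO library. SEC24A lies on chromosome 5 from 134648785 to 134727909 and SEC24B on chromosome 4 from 109433772 to 109540896. With each library left out in turn the SEC24A to SEC24B difference stayed between 0.69 and 0.75, and its adjusted exact permutation p between 0.038 and 0.0503, the upper value above the threshold. Pairs past the threshold numbered 4 without DMSO replicate 5, SFN replicate 2 or SFN replicate 5, and 0 without any 1 of the other 7 libraries, DMSO replicate 1 included. Because of the floor of the exact test, this step between 4 and 0 does not by itself show that a pair depends on 1 library. SEC24A overlaps SAR1B and SEC24B overlaps SEC24B-AS1 on the opposite strand.

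The ratios of SEC24A to SEC24D, SEC24A to SEC24C and SEC24C to SEC24D differed by 0.10, 0.24 and -0.14 (adjusted exact permutation p = 0.36, 0.067 and 0.057). SEC24A to SEC24C passed without SFN replicate 2, and SEC24C to SEC24D without DMSO replicate 5. The ratios of SEC31A to SEC31B and of TMED1 to TMED5 differed by -0.54 and -0.64 (adjusted exact permutation p = 0.057 for each), and SEC31A to SEC31B passed by limma. Those of SEC23A to SEC23B and of COPG1 to COPG2 differed by -0.10 and 0.07 (adjusted exact permutation p = 0.75 for each), with SDs over the libraries of a group between 0.13 and 0.29.

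**Figure D3:**
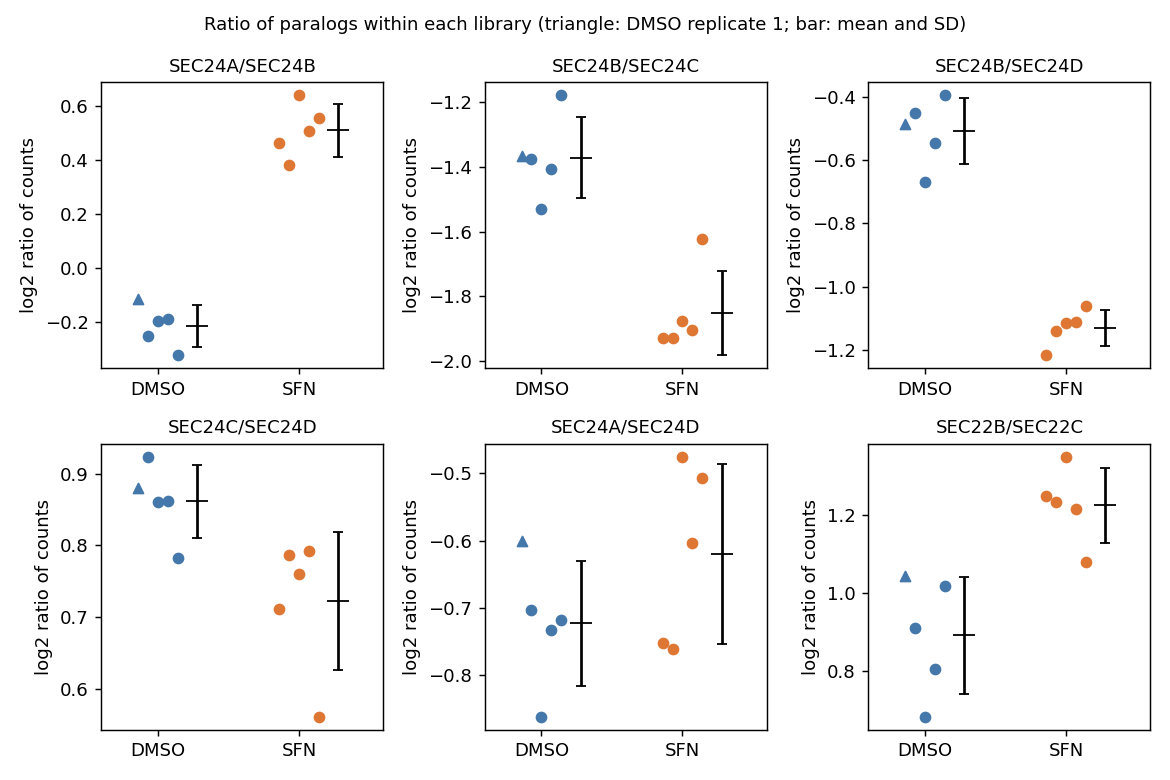
Log2 ratio of the counts of 2 paralogs in each library, DMSO and SFN, for 5 pairs of SEC24 genes and for SEC22B/SEC22C (points; the triangle is DMSO replicate 1), with mean and SD. The y axes differ and do not start at 0. The DMSO and SFN libraries are separate in every panel with SEC24B and in that of SEC22B, and DMSO replicate 1 lies with or near its group.

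SEC22B is a SNARE of ER and Golgi membranes with 2 relatives, SEC22A and SEC22C. SEC22B, on chromosome 1 from 120150898 to 120176520, had 139, 173, 147, 187 and 203 CPM in DMSO and 217, 222, 250, 217 and 235 CPM in SFN, without overlap (log2 fold change 0.43, SE 0.12, adjusted p = 0.024 by edgeR). SEC22C had 91.6 ± 14.9 CPM (SD, n = 5) in DMSO and 97.8 ± 7.97 CPM in SFN (log2 fold change 0.10, SE 0.13). The ratio of SEC22B to SEC22C rose by 0.33 on the log2 scale (exact permutation p = 0.0079, adjusted p = 0.038). SEC22A, with a log2 fold change of 0.03 (SE 0.25), was highest in DMSO replicate 1 and was increased without it (0.36). With the length slope as a covariate it was -0.08 and not past the threshold, while SEC22C was increased (0.21). SEC22B has near-identical copies on chromosome 1, SEC22B2, SEC22B3 and SEC22B4P, which had at most 20 counts in a library, so its value is uncertain to the extent that the counting dropped or moved shared reads.

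At the entry to the ER, SEC61A1, the pore of the channel, on chromosome 3 from 128051641 to 128071705, had 171, 242, 251, 234 and 245 CPM in DMSO and 289, 329.8, 304, 305 and 298 CPM in SFN. DMSO replicate 1 was far below the other DMSO libraries, but those too lay below every SFN library (log2 fold change 0.42, SE 0.12, adjusted p = 0.025 by edgeR, and 0.32 without that replicate). SEC63, which recruits the chaperone BiP to the channel, on chromosome 6 from 107867756 to 107958208, had 212, 207, 197, 212 and 201 CPM in DMSO and 264, 267, 245, 247 and 287 CPM in SFN. Its DMSO libraries were close together and below all SFN libraries (log2 fold change 0.35, SE 0.09, adjusted p = 0.015 by edgeR). The paralog SEC61A2 had at most 160 counts and a log2 fold change of 0.05 (SE 0.18).

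The small channel subunits and the catalytic subunits of signal peptidase have short transcripts, and their results turned on DMSO replicate 1. SEC61G, with a canonical transcript of 425 bases, had 816 CPM in that library, between 139 and 193 CPM in the other DMSO libraries and between 186 and 334 CPM in SFN. The log2 fold change was -0.07 (SE 0.45) with all libraries and 0.72 (adjusted p = 0.0016 by edgeR) without it. SEC11C moved likewise, with 213 CPM in DMSO replicate 1, 42.6 to 59.3 CPM in the others and 68.1 to 109 CPM in SFN, and a log2 fold change of 0.09 with and 0.77 without that library. Without it, SEC61B (0.80), SEC11A (0.62) and SEC62 (0.29) were increased too, while with it the log2 fold change of SEC62 was -0.12. With all libraries and the length slope as a covariate SEC62 was decreased instead (-0.26, adjusted p = 0.011 by edgeR), so the call of SEC62 had opposite directions in these fits. In that fit SEC11A was increased (0.23), and SEC61G (-0.17), SEC11C (-0.02) and SEC61B (0.06) did not pass.

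**Figure D4:**
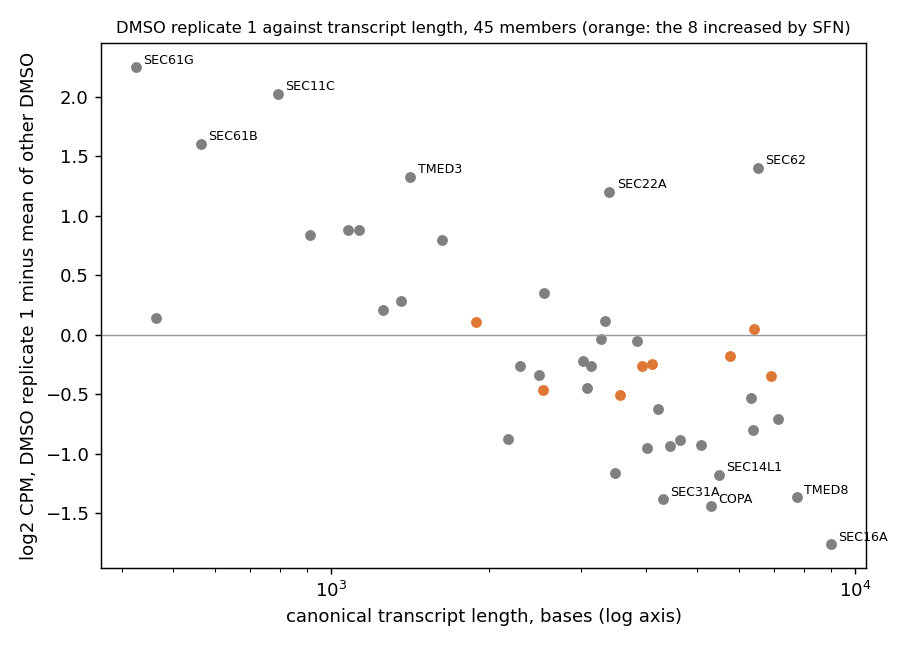
Deviation of DMSO replicate 1 from the mean of the other DMSO libraries, in log2 CPM, against the length of the canonical transcript (log axis), for the 45 tested members; orange points are the 8 increased by SFN. SEC61G, SEC11C and SEC61B lie at the upper left and SEC16A at the lower right, and the orange points lie between -0.51 and 0.11.

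Over the 45 members the deviation of DMSO replicate 1 and the transcript length had a Spearman correlation of -0.67, a description across genes of 1 library that share its preparation. SEC62, with 6526 bases and a deviation of 1.41, lay away from this trend. The 8 increased genes deviated by -0.51 (SEC61A1) to 0.11 (COPZ1). The part of this deviation in the results was not tested.

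Neither of the tested SEC14-like genes, which bind lipids, passed the test. SEC14L2 had 20.4 ± 3.52 CPM (SD, n = 5) in DMSO and 16.3 ± 0.704 CPM in SFN (log2 fold change -0.33, SE 0.13, adjusted p = 0.10 by edgeR), and was decreased without DMSO replicate 1 (-0.44, adjusted p = 0.0014). With the length slope as a covariate SEC14L2 did not pass (-0.20). For SEC14L1 the log2 fold change was 0.14 (SE 0.22), and it was increased in the fit with the covariate (0.42). The 13 members left out of the test had at most 14 counts in any library: SEC14L6 reached 14, SEC24B-AS1 12, SEC11B, SEC22B3, SEC23A-AS1 and TMED6 6, SEC14L4 3, TMED10P1 2, and SEC14L5, SEC16B, SEC1P, SEC22B2 and TMED10P2 1. The pseudogenes SEC14L1P1, SEC22B4P and SEC63P1 were tested and did not pass. Every increased gene but SEC22B overlaps an annotated gene on the other strand, among them TMED5 with CCDC18 and SEC61A1 with MGLL and RUVBL1, and whether the counting used strand is not given in the sources used here.

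The other genes of the pathway were taken from a list of 98, of which 95 were tested. SFN increased 16 (16.8%) and decreased 1, against 9.07% and 13.9% of all tested genes, and their median log2 fold change was 0.21, against -0.03. Those named are the 10 with the smallest p among the genes past the threshold without overlap between the groups, with adjusted p from 1.9e-07 to 0.038 by edgeR. In log2 fold change they included the cargo receptors SURF4 (0.50, SE 0.09), KDELR2 (0.45, SE 0.09), which retrieves ER proteins, and LMAN2L (0.77, SE 0.14). ARF1, the GTPase that recruits COPI, rose from 289 ± 29.4 CPM (SD, n = 5) to 394 ± 23.8 CPM (log2 fold change 0.45, SE 0.10), while the COPI subunit gene ARCN1 had a log2 fold change of -0.01 (SE 0.28). ARCN1 had 92.0 CPM in DMSO replicate 1 and 278 to 316 CPM in the other DMSO libraries, and its log2 fold change was -0.23 without that library (adjusted p = 0.16 by edgeR) and 0.42 with the length slope as a covariate, where it was increased. The Rab GTPases RAB1A (0.34), RAB1B (0.50) and RAB2A (0.41), which act in transport between ER and Golgi, were increased too. TRAPPC5, of a vesicle tether, rose (1.86, SE 0.31), with 4 to 31 counts in a library. CNIH3 was the decreased gene (-0.92, SE 0.22). Without DMSO replicate 1, 45 of these genes were increased (47.4%) and 8 decreased (8.42%), against 22.5% and 23.5% of all genes.

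Of the 9 transcription factors and activating proteases on the list, XBP1 alone passed the test with all libraries and no covariate. It had 69.2 ± 4.88 CPM (SD, n = 5) in DMSO and 306 ± 25.5 CPM in SFN (log2 fold change 2.14, SE 0.10, adjusted p = 1.9e-07 by edgeR). The log2 fold changes of ATF6 (0.29), ATF6B (0.17), CREB3 (0.21), CREB3L1 (-0.36), CREB3L2 (-0.08), CREB3L4 (0.23), MBTPS1 (0.12) and MBTPS2 (0.11) were not past the threshold in that fit. Without DMSO replicate 1, XBP1 (2.11) and CREB3 (0.22, adjusted p = 0.039 by edgeR) were increased and CREB3L1 was decreased (-0.55, adjusted p = 0.00064 by edgeR). With the length slope as a covariate, XBP1 (2.14), CREB3 (0.18), ATF6 (0.39), CREB3L2 (0.33), MBTPS1 (0.22) and MBTPS2 (0.26) were increased and CREB3L1 (-0.10) did not pass.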

How the data were processed

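The authors deposited raw counts per Ensembl gene for each library, not normalized, with replicates kept separate. Their methods name Lexogen QuantSeq reads, which come from the 3′ ends of transcripts, and the Bluebee pipeline, and the submitters' processing notes name FastQC, STAR, featureCounts, edgeR and GRCh38. Versions, the use of strand and of molecular identifiers are not given in the sources used here.

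Genes were filtered with filterByExpr, scaled by TMM and tested with glmQLFit and glmQLFTest (edgeR 4.0.16, R 4.3.3), with Benjamini-Hochberg adjustment. The SE is the absolute log2 fold change over the root of the F statistic. DESeq2 1.42.0 and limma 3.58.1 were alternatives. Positions and lengths are from GENCODE 44. Paralog log2 ratios had 0.5 added to each count. Methods were tested on simulated data. No pair of replicates differed by less than the sampling noise (lowest chi-square per degree of freedom 3.70).

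The members, lists and pairs were chosen with earlier results of these data known. Members past the threshold or beyond 1 in log2 fold change and their paralogs are named with values, untested members with their highest count, and of the other pathway genes the 10 of smallest p that passed without overlap and all transcription factors. Same-numbered replicates did not deviate together in a uniform way (correlations from -0.25 for replicate 2 to 0.46 for replicate 5), so they were not paired in the main fit. The alternatives were normalization, test, filter, a replicate block, a fold change limit and leaving out each library. A fit with the length slope of the libraries as covariate was chosen after seeing the data. The study's dream model, which its methods describe as taking dependence between repeated measures into account, was not run.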

Additional observations from a re-analysis of the deposited data

Results flagged for a closer look

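In 100 groups of 5 libraries (the 45 tested members and 5 library measures in each treatment), 29 held a library set apart from the other 4, where about 5 would be by chance. DMSO replicate 1 was the library in 23 of them. Each value in parentheses gives, as a share of its group's range, how far the library lay from its nearest neighbour. DMSO replicate 1 was lowest for SEC24C (0.93), SEC24D (0.83), SEC31A (0.87), SEC16A (0.73), SEC23IP (0.74), COPA (0.79), TMED2 (0.71), TMED8 (0.92), SEC61A1 (0.78), SEC14L1 (0.79) and SEC14L2 (0.82). It was highest for COPE (0.72), TMED1 (0.73), TMED3 (0.93), SEC22A (0.85), SEC61B (0.84), SEC61G (0.92), SEC62 (0.95), SEC11A (0.98) and SEC11C (0.90). It also stood apart in its TMM factor (0.91), its slope of log2 CPM on transcript length (0.85) and its root mean square log2 distance from its group (0.85).

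SFN replicate 5 was highest for SEC31A (0.82) and SEC16A (0.74) and lowest for TMED1 (0.76) and TMED9 (0.72). SFN replicate 1 was highest for SEC22A (0.77) and SFN replicate 2 for SEC61B (0.77). Among the 8 increased genes, TMED2 and SEC61A1 were set apart in this way, in DMSO replicate 1, and both had a smaller log2 fold change without it, 0.43 and 0.32.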

How the results depend on the processing

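The median log2 fold change of the members minus that of all tested genes, 0.24, stayed between 0.17 and 0.28 in all alternatives in which it was computed. The 8 increased members became 2 with library size only, 3 with limma-voom, 4 without a low-count filter, 4 with the replicate block, 1 when a fold change above 1.2 was required and 25 with the length slope as a covariate (24.6% of all genes increased and 25.6% decreased), and 12 by DESeq2. They ranged from 5 (without SFN replicate 3) to 19 (without DMSO replicate 1) when libraries were left out, and the decreased members from 0 to 3, with 2 under the length slope. Shares of all genes were computed for the main fit, the fit without DMSO replicate 1 and the fit with the length slope. Under the other settings, a change in the members cannot be told apart from a change in the calls of all genes. The other pathway genes increased were 8 with library size only, 26 by DESeq2, 9 without a filter, 5 with the fold change limit, 50 with the length slope and 9 to 45 with a library left out, against 16. Those decreased were 0 by limma-voom (1 by edgeR), 7 with the length slope and 1 to 8 with a library left out. The replicate block changed no direction among the 8 increased members, and correlations of same-numbered libraries were not uniform (-0.25 to 0.46). Paralog pairs past the threshold numbered 0 to 4 with a library left out, 5 by limma and 3 by limma with the replicate block. The exact test passes a pair only where several pairs have a p near its smallest value. Without DMSO replicate 1 the log2 fold changes of SEC62 and SEC61G turned to 0.29 and 0.72 (lowest values with another library left out -0.21 and -0.26), and with the length slope that of SEC31A to 0.31, while SEC62 was then decreased (-0.26, adjusted p = 0.011 by edgeR). In the 150 bases before the start, ACGTG stood in 16 and TGACGTG in 3 windows (16.5% and 1.62% of the windows of tested genes). The cause of these differences was not tested.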
